A study of Mus musculus with 9 samples.

Results

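The Zfp genes described here are the expressed mouse genes whose symbols are Zfp followed by a number, most of which encode DNA-binding zinc finger proteins. They were taken from the deposited counts as every row that holds such a symbol, alone or merged with overlapping symbols, and a summed count of 300 or more over the 9 libraries. Zfp57, Zfp445, Zfp202 and Zfp42 were left out by the same rule. This gave 191 rows with 198 Zfp symbols, of 355 rows with a Zfp symbol and 30232 gene rows in all, and all 191 passed the filter on low counts used for testing. A further 160 Zfp rows fell below the summed count. Zfp760 (311 counts), Zfp93 (316) and Zfp937 (316) lay just inside the limit, and Zfp799 (298), Zfp946 (298) and Zfp493 (297) just outside.

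The libraries are polyadenylated RNA of mouse embryonic stem cells, counted at the 3' end by MARS-seq2.0. In sequencing run2 there were 4 RGM libraries, replicates 1 and 2 of each genotype, wild-type and Gzf1-knockout. In run1 there were 5: wild-type replicate 3 (V6.5), wild-type replicate 4 (Cas9-GFP) and knockout replicates 3 to 5 (V6.5). All lines were grown with LIF and serum on irradiated embryonic fibroblasts, which were depleted before harvest. Because every RGM library is of run2 and every other library of run1, line and run cannot be told apart. The labels do not name clones, separate cultures or the edited part of Gzf1, so p-values measure only how far these libraries spread, and that spread may be technical.

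C2H2 zinc finger proteins read DNA through tandem fingers, each a short loop held by a zinc ion between 2 cysteines and 2 histidines. Many carry a KRAB box at the amino-terminal end. The KRAB box binds the corepressor Trim28, which brings in the histone methyltransferase Setdb1 and HP1 proteins, and in embryonic stem cells this machinery silences retroelements and guards imprints. Such genes often lie in tandem clusters of related copies. Gzf1, the gene targeted in the study, belongs to the same broad class but has no Zfp symbol.

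Gzf1 itself was at 28.6, 30, 8.11 and 18.7 CPM (each count divided by the library total and scaled) in wild-type replicates 1 to 4 and at 5.45, 14.2, 1.66, 9.40 and 5.24 CPM in knockout replicates 1 to 5. Within RGM the knockout values lay below the wild-type values, and within run1 the genotypes overlapped. The log2 fold change was -1.45 (edgeR, SE 0.42, unadjusted p = 0.0048, adjusted p = 0.9998). A 3' tag outside the edited part would not report the edit. Library totals were 2568489 to 3704162 counts in run2 and 4872127 to 7072697 in run1. A count of 3, taken as the floor, stood for 0.412 to 1.18 CPM, which covers counting error only. Embryonic stem cell markers were present in every library (15 of 15 tested, none at 0), with a summed level of 6840 to 7710 CPM in RGM and 6470 to 8310 CPM in run1 libraries. The sums hide differences of single markers: 3 of the 15 were higher in RGM (20%, beside 22.2% of all tested rows) and 3 lower (20%, beside 23.1%). Of 27 tested markers of feeder fibroblasts, 21 were higher and 1 lower in RGM, and their summed level was 4640 to 7140 CPM in RGM against 2530 to 3600 CPM in run1. By genotype the same sum was 2530 to 5850 CPM in wild-type and 2630 to 7140 CPM in knockout libraries, with none of these markers past the threshold. The part of feeder RNA and of depth in the differences below was not tested, and in bulk RNA fewer cells of a type and less RNA per cell cannot be told apart.

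The symbol was checked against the coding sequences of the GENCODE M21 annotation (GRCm38, that is mm10). All but 5 of the 191 rows held a C2H2 finger pattern: 37 had 1 to 4, 58 had 5 to 9 and 91 had 10 or more, with a maximum of 36 in Zfp142. The 5 without one were Zfp36, Zfp185, Zfp330, Zfp365 and Zfp839. Zfp36 encodes tristetraprolin, whose fingers are of another type and bind AU-rich messenger RNA, and Zfp185 encodes a LIM domain protein. A KRAB box pattern was found in 82 rows and a SCAN domain pattern, which marks a dimerisation domain, in 7. The genes lay on 20 chromosomes, with 48 rows on chromosome 7, 23 on chromosome 17 and 15 on chromosome 13. In 22 rows the Zfp symbol was merged with another, and 7 of these held a pair of Zfp genes, so reads of either cannot be separated. Related copies may also share reads: the translated sequences of Zfp942 and Zfp944 were 78.9% identical and those of Zfp729a and Zfp729b 77.3%. A gene on the opposite strand overlapped 71 rows, among them Zfp36, Zfp131, Zfp341, Zfp367, Zfp428, Zfp553, Zfp617 and Zfp689, and without a stated strand the reads of such pairs cannot be told apart.

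Zfp genes gave a small and even share of each library. Together the 191 rows took 0.5582% to 0.5848% of the counts in RGM libraries and 0.5935% to 0.6183% in run1 libraries, without overlap between the lines. The rows were chosen by summed counts, and run1 held 71.8% of all counts, so rows high in run1 entered more readily. The part of this rule in the gap was not tested. Mean CPM of a row ran from 6.48 to 476 with a median of 19.3, and 7 rows were above 100 CPM. CPM here counts 3' tags and is not divided by length, so it orders tags rather than whole transcripts. The highest tag levels were those of Zfp706, whose product limits stem cell self-renewal, at 476 CPM, and of Zfp207, a kinetochore protein that binds Bub3, at 333 CPM in a merged row. Zfp106, an RNA-binding protein (140 CPM, merged row), Zfp710 (130 CPM), Zfp622, a factor of large ribosomal subunit maturation (128 CPM), and Zfp281, a transcription factor of pluripotent cells (118 CPM), followed. Rows with a KRAB box pattern had a median of 13.6 CPM and rows without one 27 CPM.

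**Figure D1:**
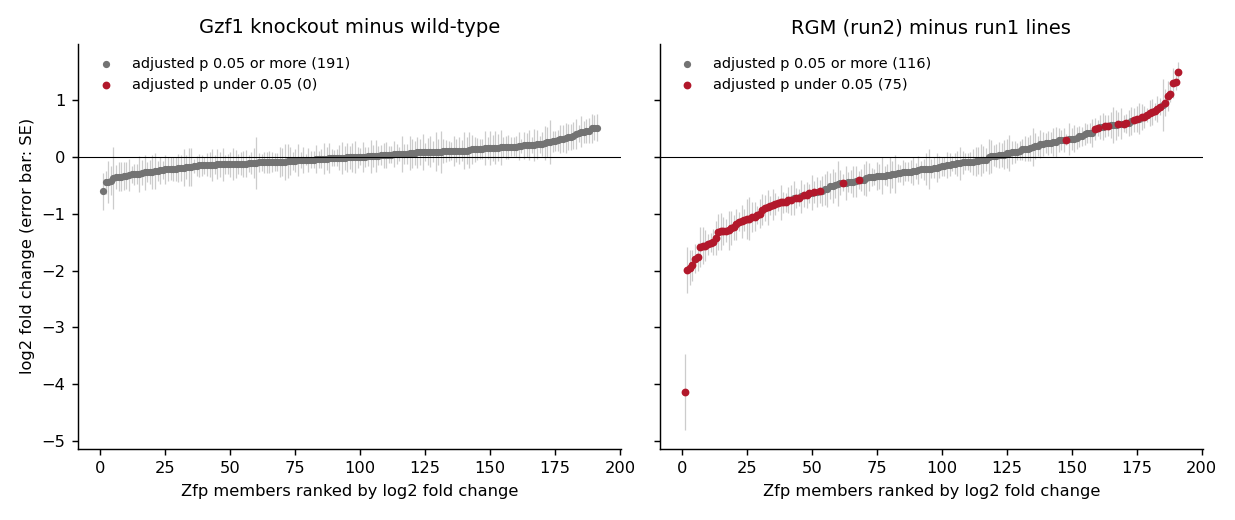
Log2 fold changes of the 191 Zfp rows, ranked within each panel, for Gzf1 knockout minus wild-type (left) and RGM of run2 minus the run1 lines (right), with standard errors as bars and rows past an adjusted p of 0.05 in red. Genotype values lie between -0.61 and 0.51 with 0 rows past the threshold, and line values between -4.14 and 1.49 with 75 past it.

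Loss of Gzf1 came with no called change in any Zfp gene. In the fit to all 9 libraries, with run as a term, 0 of 191 rows passed an adjusted p of 0.05 (edgeR), beside 4 of all 12645 tested rows (0.0316%), all 4 lower. DESeq2 and limma voom also called 0 of the 191. At an unadjusted p under 0.05 there were 4 of 191 rows (2.09%), beside 2.32% of all tested rows. The log2 fold changes of the Zfp rows had a median of -0.01, with 89 positive and 102 negative, and 8 in 10 of them lay between -0.26 and 0.26. Over all tested rows the median was 0.01 and the same span -0.23 to 0.3. A knockout library range clear of the wild-type range was seen for 1 row upward (Zfp870), beside 0.198% of all tested rows, and for 0 rows downward, beside 0.245%.

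The genes with the widest genotype differences are given first for those that were lower in the fit, none of them past the threshold. For Zfp282, a KRAB finger gene, the wild-type libraries read 10.8, 7.89, 16.5 and 10.6 CPM (replicates 1 to 4) and the knockout libraries 7.05, 7.5, 9.68, 11.3 and 3.28 CPM (replicates 1 to 5). Knockout replicate 4 lay above 3 of the 4 wild-type libraries, and the log2 fold change was -0.61 (SE 0.32, unadjusted p = 0.083, adjusted p = 0.9998). Zfp65, a KRAB finger gene of the chromosome 13 cluster, read 16.4, 15, 13.5 and 14.3 CPM without the knockout and 12.2, 13.8, 10.6, 9.19 and 8.2 CPM with it. Its groups touched only at wild-type replicate 3 and knockout replicate 2, which are of different lines, and the log2 fold change was -0.45 (SE 0.2, unadjusted p = 0.041, adjusted p = 0.9998). Zfp771, Zfp182 and Zfp628 had -0.36, -0.42 and -0.44, with standard errors of 0.21, 0.26 and 0.37. Zfp951 had -0.37 (SE 0.54), and without wild-type replicate 4 its sign turned, to 0.34.

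In the other direction, the values of Zfp870 were 10.8, 8.29, 10.3 and 10.2 CPM for wild-type and 10.9, 11.4, 16.3, 11.5 and 22.3 CPM for knockout cells. Knockout replicates 3 and 5 stood well above the wild-type libraries while the others lay just above the highest of them, and the log2 fold change was 0.51 (SE 0.24, adjusted p = 0.9998). Zfp354c was at 8.9, 7.5, 11.4 and 10.2 CPM and at 12.2, 12.6, 15.1, 10.9 and 15.9 CPM, with knockout replicate 4 below wild-type replicate 3 (log2 fold change 0.46, SE 0.21). The row of Zfp652, merged with Phospho1, was at 16.4, 11.1, 27.1 and 24.9 CPM and at 18.3, 34.7, 30.4, 26.7 and 35.2 CPM (0.51, SE 0.22). Zfp423, a partner of BMP and EBF signalling in neural and fat development, had 0.50 (SE 0.26), and Zfp516, a regulator of brown fat genes, 0.46 (SE 0.22). Zfp2, in a row merged with AK031979, had 0.44 (SE 0.27).

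**Figure D2:**
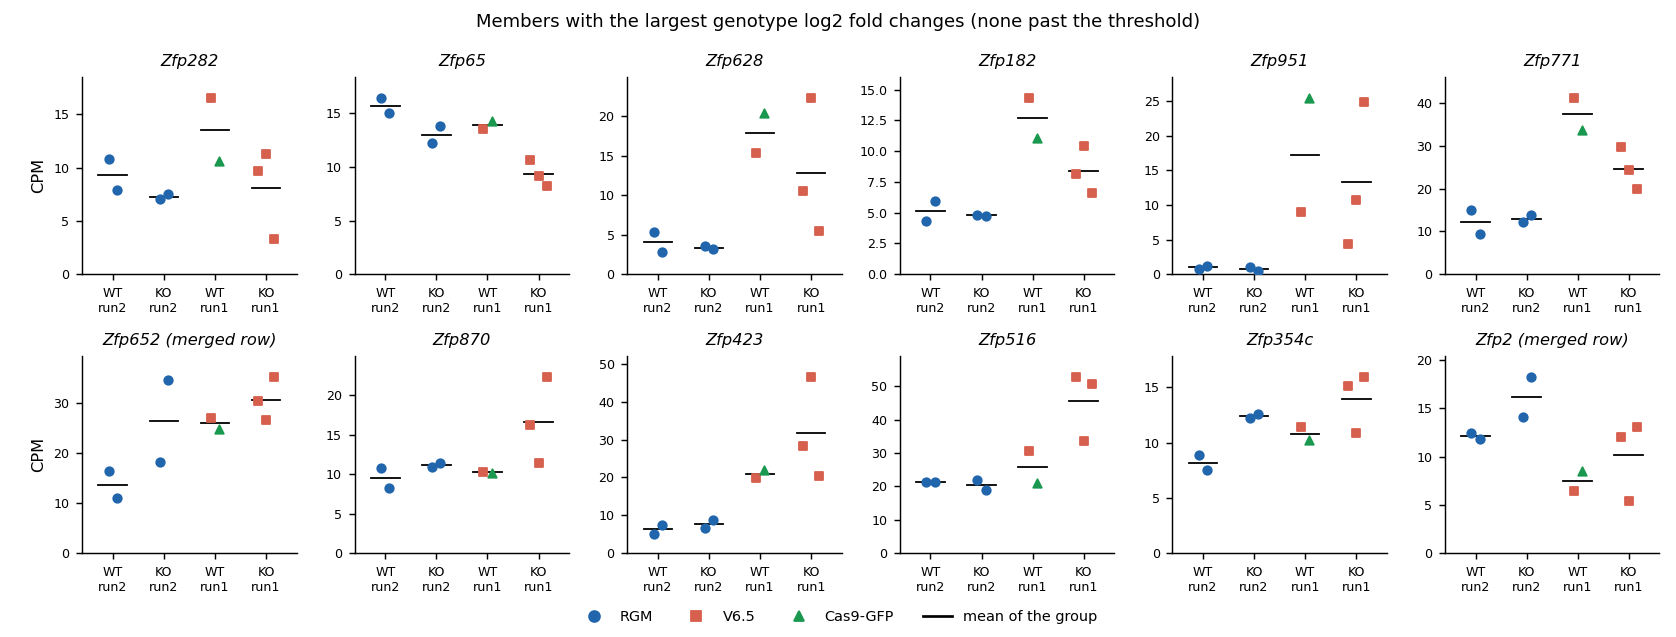
CPM in each library (points, shaped by cell line) with the mean of each genotype and run (bar) for the 6 most negative (upper row) and 6 most positive (lower row) genotype log2 fold changes among the Zfp rows. With the runs pooled, wild-type and knockout points overlap in each panel except that of Zfp870. There the knockout libraries start at 10.9 CPM and the wild-type libraries end at 10.8 CPM. Within single runs some panels do not overlap, such as that of Zfp65, where knockout lies below wild-type in each run.

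Genotype was also permuted within runs for single genes (exact, two-sided, 60 arrangements, smallest possible p 0.017). Of 191 rows permuted, 2 reached that smallest p: Zfp65 and Zfp326, part of a complex that links transcript elongation with splicing. Among 191 rows some can reach a p of 0.017 without any genotype effect. Only Zfp rows were permuted, so no share over all tested rows stands beside this count. Zfp326 read 23.7 and 21.7 CPM in wild-type against 28.5 and 28.8 CPM in knockout RGM cells, and 49.7 and 38.5 against 55, 56.6 and 70.0 CPM in run1. Knockout was thus above wild-type in each run, although the genotypes overlap when the runs are pooled, and the log2 fold change was 0.41 (SE 0.15, edgeR unadjusted p = 0.019, adjusted p = 0.9998). Zfp326 was chosen after its values were seen, for the size of its p.

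Within each run the genotype comparison called no Zfp gene either; run1 holds 1 Cas9-GFP library, wild-type replicate 4, beside 4 V6.5 libraries. Within RGM (2 libraries of each genotype) 0 of 191 passed, beside 0% of all tested rows, with 1 row at an unadjusted p under 0.05 (0.524%, beside 0.822% of all rows). Within run1 (2 wild-type and 3 knockout libraries) 0 of 191 passed, beside 0.0158% of all rows, with 9 rows at an unadjusted p under 0.05 (4.71%, beside 3.84%). The test of the difference between runs called 0 rows in edgeR and in DESeq2, beside 0% of all rows, with 2 Zfp rows at an unadjusted p under 0.05 (1.05%, beside 1.44%). These were Zfp524, with log2 fold changes of -0.69 (SE 0.39) in RGM and 0.51 (SE 0.33) in run1, and Zfp516, with -0.06 (SE 0.31) and 0.83 (SE 0.26). Their unadjusted p-values were 0.037 and 0.045 and their adjusted p 0.9999. Zfp428 followed with 0.15 (SE 0.23) and -0.50 (SE 0.19), unadjusted p = 0.053.

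Genes with textbook roles in stem cells or retroelement control were close to 0 by genotype. Zfp281 had a log2 fold change of -0.02 (SE 0.15) and Zfp296, a partner of Klf4, one of -0.05 (SE 0.15). Zfp809, which silences proviruses that use a proline primer site, had 0.06 (SE 0.26), and Zfp568, a repressor of a placental Igf2 transcript, -0.13 (SE 0.18). Zfp143, a promoter-binding activator, had 0.16 (SE 0.24) and Zfp462, a chromatin-associated finger protein, 0.05 (SE 0.17). Of these 6 none reached an unadjusted p under 0.05.

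No gene on the corepressor side of the KRAB pathway was called by genotype. Of 33 rows on a list of KRAB corepressor and heterochromatin genes, 32 were tested and 0 passed, with a median log2 fold change of 0.05. Trim28 averaged 1540 CPM without the knockout and 1590 CPM with it (a log2 fold change of 0.06, SE 0.14), and Setdb1 57.6 and 59.8 CPM (0.05, SE 0.14). SCAN domain finger genes with Zscan and Zkscan symbols had 16 of 27 rows tested, 0 past the threshold and a median of -0.04.

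Between the lines Zfp genes were called slightly less often than all tested rows, with fewer higher in RGM and a similar share lower. Of 191 rows 75 (39.3%) passed the threshold, beside 45.3% of all tested rows (edgeR, genotype as a term). In RGM cells 24 were higher (12.6%) and 51 lower (26.7%) than in the run1 lines. Over all 12645 tested rows 22.2% were higher and 23.1% lower, and over the 10077 tested rows with a summed count of 300 or more 21.9% and 24.8%. The 4 RGM libraries lay wholly above the 5 run1 libraries for 20 Zfp rows (10.5%, beside 19.4% of all tested rows) and wholly below them for 49 (25.7%, beside 19.2%). The median log2 difference was -0.21 for the Zfp rows and -0.02 for all tested rows. The deeper run1 libraries held 71.8% of all counts, so a summed count favours rows that are high in run1. When Zfp rows were chosen instead by the mean of both run means, at the matching level of 7.05 CPM, 185 rows qualified, of which 14.1% were higher and 24.3% lower. All 75 called rows had the same sign in wild-type libraries alone and in knockout libraries alone, and 27 passed the threshold in each. The 75 were called from these same libraries, so agreement in sign was largely fixed in advance and gives no separate support. The matching shares over all tested rows were not computed. With wild-type libraries alone 43 Zfp rows passed (22.5%, beside 24.4% of all rows), and with knockout libraries alone, RGM against V6.5, 41 (21.5%, beside 25% of all rows). Of the 75, 34 differed by more than 1 on the log2 scale, 29 lower and 5 higher in RGM. This count was not made over all tested rows, so it cannot be read as particular to Zfp genes. Wide line differences were common: the span given above for genotype changes, taken by line, was -1.03 to 1.04 over all tested rows. For the Zfp rows it was -1.24 to 0.59.

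The widest gap was that of Zfp951, a KRAB finger gene of chromosome 5 (104813169 to 104860070, mm10). It had 3, 3, 3 and 1 counts in the RGM libraries (wild-type replicates 1 and 2, then knockout replicates 1 and 2) and 65, 135, 31, 51 and 152 counts in the run1 libraries (wild-type replicates 3 and 4, then knockout replicates 3 to 5). In CPM these were 0.809, 1.18, 0.961 and 0.395 against 8.93, 25.4, 4.29, 10.7 and 24.9. The ranges did not overlap, and the run1 libraries differed among themselves as well, with 4.29 CPM in V6.5 knockout replicate 3 and 24.9 CPM in V6.5 knockout replicate 5. From summed counts the level was 16.8 times as high in run1 (exact 95% interval 9.06 to 35.3, counting error only), and the log2 fold change was -4.14 (SE 0.67, adjusted p = 0.00038).

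Other genes lower in RGM were Zfp628, Zfp617, Zfp423, Zfp365, Zfp386, Zfp329, Zfp213, Zfp707 and Zfp553. Zfp423 was at 5.12, 7.5, 6.73 and 8.68 CPM in RGM and at 19.9, 21.9, 28.3, 46.4 and 20.3 CPM in run1, with a wide gap between the groups (log2 fold change -1.91, SE 0.27, adjusted p = 8.8e-05). Zfp365, which encodes a partner of the centrosomal protein Disc1, was at 5.93, 6.71, 8.97 and 8.29 CPM in RGM and 24.0, 26.6, 17.6, 36.5 and 26.2 CPM in run1 (-1.79, SE 0.25, adjusted p = 6.2e-05). Neither gene has a KRAB box pattern. Zfp386, a KRAB finger gene, was at 5.39, 5.92, 8.65 and 7.1 CPM against 24.6, 23.4, 24.3, 28.4 and 14.6 CPM (-1.76, SE 0.25, adjusted p = 8.8e-05). Zfp617, another KRAB finger gene, was at 2.43, 1.97, 3.84 and 2.37 CPM against 12.1, 8.67, 12.3, 11.9 and 7.54 CPM (-1.95, SE 0.31, adjusted p = 0.00022). With equal weight to each run Zfp617 would not have reached the level of 7.05 CPM. It is in the set through the deeper run1 libraries, where it is high, so its place among the widest falls rests partly on the rule. Zfp628 had a log2 fold change of -1.99 (SE 0.4), Zfp329 of -1.59 (SE 0.35), Zfp213 of -1.56 (SE 0.33) and Zfp707 of -1.56 (SE 0.28). Zfp428, with a single finger pattern, was lower at a far higher tag level, 55.9 ± 9.03 CPM against 159 ± 35.6 CPM (-1.51, SE 0.17, adjusted p = 1.4e-05).

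Genes higher in RGM were led by Zfp36. It was at 59.8, 55.3, 64.7 and 55.3 CPM in RGM and at 19.6, 18.1, 29.6, 18 and 20.5 CPM in run1, with knockout replicate 3 above the other run1 libraries and still well below RGM (log2 fold change 1.49, SE 0.17, adjusted p = 1.5e-05). Zfp367 was at 60.9, 53.7, 55.4 and 67.1 CPM against 21.4, 27.9, 21.4, 26.5 and 22 CPM (1.32, SE 0.15, adjusted p = 1.8e-05). Zfp131, a finger protein with a BTB domain, was at 79.8, 101, 80.7 and 82.9 CPM against 33.2, 45.2, 42.6, 43.6 and 34.1 CPM (1.11, SE 0.15, adjusted p = 5.6e-05). Both genes separated the lines with no overlap. Zfp341, which drives Stat3 expression in immune cells, averaged 16.7 ± 3.09 CPM in RGM (SD, n = 4) against 6.76 ± 2.09 CPM in run1 (SD, n = 5), with a log2 difference of 1.30 (edgeR, SE 0.27, adjusted p = 0.0013). Zfp593, a ribosome biogenesis factor, was at 121 ± 11.8 and 65.4 ± 13 CPM (0.88, SE 0.15, adjusted p = 0.00042). Zfp760, Zfp748 and Zfp383, all with a KRAB box pattern, had 1.07, 0.95 and 0.77, and Zfp523 and Zfp64 had 0.84 and 0.80. Zfp760 and Zfp748 did not pass with wild-type libraries alone (0.99, adjusted p = 0.092, and 0.86, adjusted p = 0.11), nor Zfp523 and Zfp383 with knockout libraries alone (0.54, adjusted p = 0.20, and 0.50, adjusted p = 0.23).

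**Figure D3:**
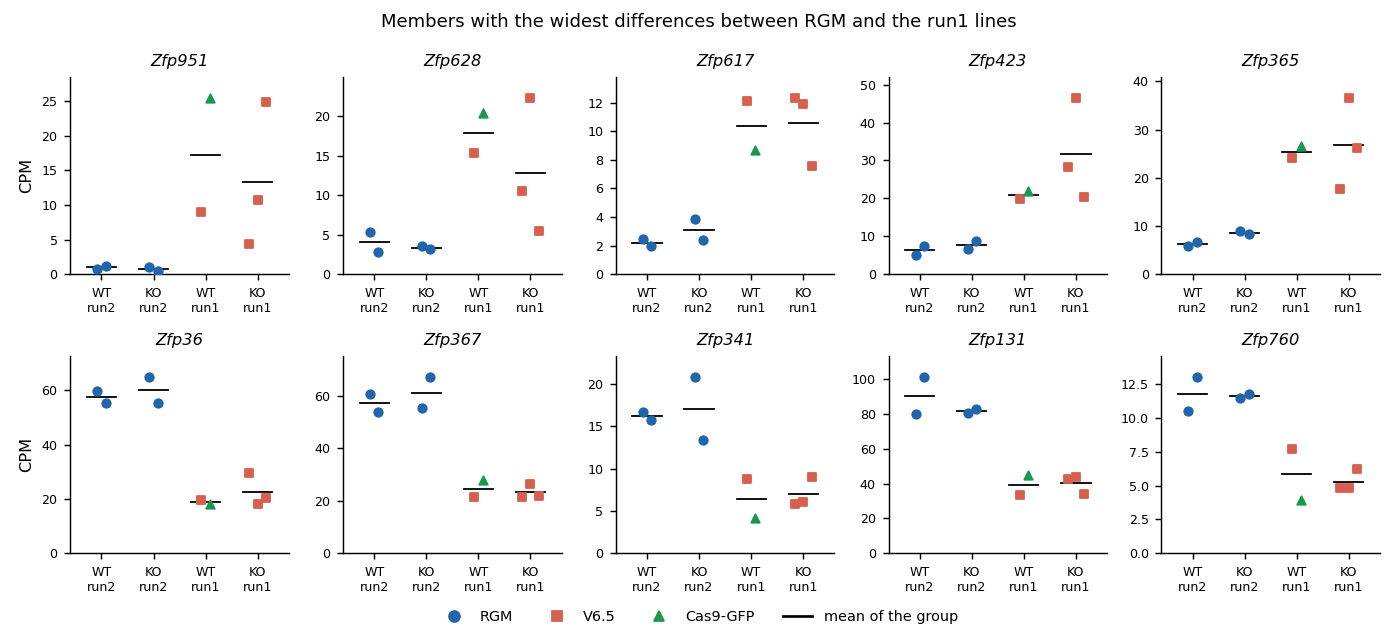
CPM in each library, with points shaped by cell line and bars for the mean of each genotype and run, for the 5 Zfp genes with the widest falls (upper row) and the 5 with the widest rises (lower row) in RGM relative to run1. Within each panel the 4 RGM points lie wholly below or wholly above the 5 run1 points. Zfp617 is in the set only through the deeper run1 libraries, where it is high.

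Further genes with textbook roles in stem cells, development or retroelement control were mixed. Like Zfp423 above, Zfp281 and Zfp462 were lower in RGM, while Zfp296, Zfp322a, Zfp568 and Zfp809 did not pass. Zfp281 was at 84.6, 79.3, 94.5 and 87.6 CPM in RGM and at 134, 169, 168, 136 and 106 CPM in run1, without overlap (log2 fold change -0.72, SE 0.15, adjusted p = 0.0016). Among knockout libraries alone, RGM against V6.5, its adjusted p was 0.059 at a log2 fold change of -0.59. Zfp462 was lower in RGM, with its ranges touching at 46.8 and 46.7 CPM (-0.64, SE 0.17, adjusted p = 0.0072). Zfp296 had 0.09 (SE 0.15), Zfp322a, a pluripotency factor, 0.03 (SE 0.23), Zfp568 -0.09 (SE 0.18) and Zfp809 0.06 (SE 0.26), none past the threshold. Of the genes with the highest tag levels, Zfp710 was higher in RGM (166 ± 10.5 against 100 ± 9.9 CPM, log2 fold change 0.74, SE 0.12, adjusted p = 0.00025) and Zfp106 likewise (0.50, SE 0.14, adjusted p = 0.011). Zfp106 did not pass without knockout replicate 2 (0.42, adjusted p = 0.055). Zfp706 passed narrowly (0.30, SE 0.1, adjusted p = 0.027) and not without wild-type replicate 1 (adjusted p = 0.076), wild-type replicate 4 (0.050), knockout replicate 1 (0.053) or knockout replicate 2 (0.092), while Zfp622 and Zfp207 did not pass, at -0.12 (SE 0.13) and -0.21 (SE 0.17).

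The promoter bases of the genes at the ends of this range are shown so that their CG content can be read beside the values. Each is the 250 bases before the RefSeq start site (GRCm38.p6), 5′ to 3′ on the strand of the gene, with every CG dinucleotide in capitals. The window of Zfp951 is chr5:104860028-104860277 on the minus strand and holds 7 CG, a number that 46.5% of the 27025 genes with such a window reach. That of Zfp36 is chr7:28379229-28379478 on the minus strand and holds 18, a number that 21.6% reach.
Zfp951: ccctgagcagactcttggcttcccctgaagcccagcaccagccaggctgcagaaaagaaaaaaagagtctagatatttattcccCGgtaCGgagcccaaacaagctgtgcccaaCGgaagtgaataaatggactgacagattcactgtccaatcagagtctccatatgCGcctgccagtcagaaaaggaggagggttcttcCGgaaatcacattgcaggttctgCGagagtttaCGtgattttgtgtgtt
Zfp36: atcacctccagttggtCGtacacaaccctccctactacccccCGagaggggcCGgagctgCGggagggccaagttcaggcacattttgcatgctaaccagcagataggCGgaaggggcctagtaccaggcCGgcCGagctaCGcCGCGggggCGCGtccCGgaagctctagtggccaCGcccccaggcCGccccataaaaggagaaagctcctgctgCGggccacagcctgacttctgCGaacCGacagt
The gene with the widest fall in RGM has the sparser window, and the gene with the widest rise the denser one. This is a description of a pair of genes chosen for their values.

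KRAB finger genes were called by line in nearly the same share as the others. Of 82 rows with a KRAB box pattern 9 were higher and 22 lower in RGM (37.8% called), and of 109 without one 15 were higher and 29 lower (40.4%). Their median log2 differences were -0.26 and -0.17, and the genotype medians 0.03 and -0.02, with 0 called in either. By number of fingers the median line difference was -0.05 for 1 to 4, -0.17 for 5 to 9 and -0.30 for 10 or more. Tag level moved with it: the medians were 40.1, 22.6 and 13.6 CPM in the same order, and its part was not tested. With rows split by mean CPM into 3 parts, the 64 lowest had 4 higher and 23 lower, the 63 in the middle 8 and 15, and the 64 highest 12 and 13. Run1 held 71.8% of all counts, so rows near the limit on the summed count enter more readily when they are high in run1. This bears most on the lowest part, and its share in the split was not tested. The same split was not made over all tested rows. All 4 called rows among the 7 with a SCAN pattern were lower in RGM, beside 26.7% of the 191 Zfp rows and 23.1% of all tested rows. Of the 16 tested SCAN domain genes with Zscan and Zkscan symbols, 1 was lower (6.2%) and 0 were higher. No test of these groups against each other was made.

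CG content was counted in the same promoter window for each class. For the 153 rows with 1 Zfp symbol and a RefSeq window, the median was 12 CG dinucleotides in 250 bases, beside 6 over all 27025 genes with a window. The sets are unlike: the Zfp rows were chosen by their counts, and the 27025 genes were not filtered by expression. A comparison with other expressed genes was not made. Rows with a KRAB box pattern had a median of 8 (66 rows) and those without one 17 (87 rows). Rows higher in RGM had a median of 15, rows lower in RGM 12 and rows not called 12.

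**Figure D4:**
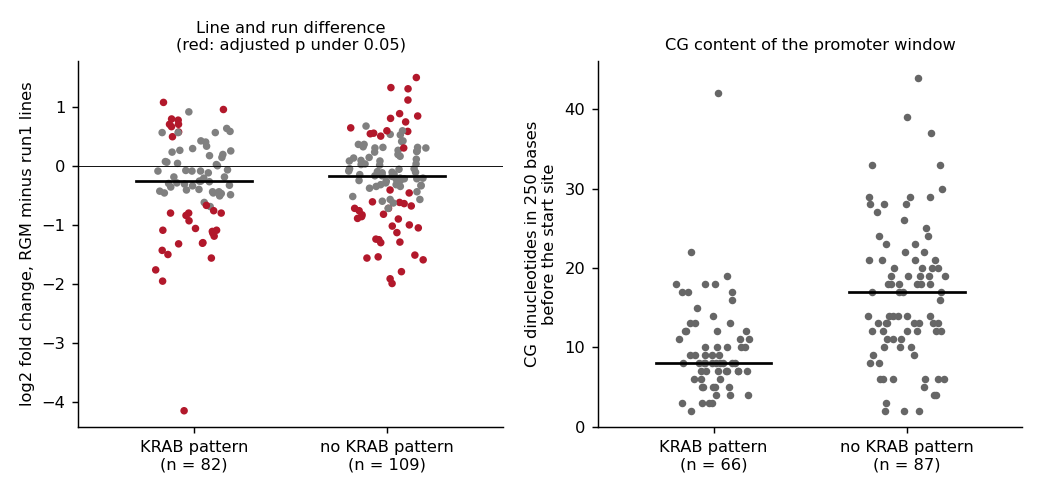
Left, log2 difference of RGM minus the run1 lines for Zfp rows with and without a KRAB box pattern (1 point per row, red past an adjusted p of 0.05, bar at the median of -0.26 and -0.17). Right, CG dinucleotides in the 250 bases before the start site for the rows with a window, with medians of 8 and 17.

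Neighbouring genes were examined because finger genes lie in tandem. With gaps of at most 250000 bases, 13 clusters of 3 or more Zfp rows held 60 of the 191. A cluster of 5 on chromosome 7 (127233061 to 127449158, mm10) had the lowest median log2 difference of the 13, -1.24. In it 4 genes were lower in RGM, beside 23.1% of all tested rows. Zfp553 was at 14.6, 13.4, 12.2 and 11.4 CPM in RGM and at 44.1, 33.2, 40.4, 38.8 and 28.7 CPM in run1 (-1.54, SE 0.19, adjusted p = 2.4e-05). Zfp771 was at 12.6 ± 2.43 and 29.8 ± 8.23 CPM (-1.24, SE 0.22, adjusted p = 0.00047), Zfp747 at 4.65 ± 1.31 and 10.3 ± 1.72 CPM (-1.19, SE 0.27, adjusted p = 0.0023) and Zfp689 at 3.71 ± 0.707 and 9.06 ± 2.69 CPM (-1.32, SE 0.32, adjusted p = 0.0037), each as SD with n = 4 and n = 5. These 4 genes separated the lines without overlap. With equal weight to each run Zfp689 would not have reached the level of 7.05 CPM, so it is in the set through the deeper run1 libraries, where it is high. Zfp688, between Zfp747 and Zfp689, was at 15.9, 11.8, 14.7 and 16.6 CPM against 23.9, 17.3, 24.7, 13.2 and 35.9 CPM, with overlap, and did not pass (-0.62, SE 0.26, adjusted p = 0.071).

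The promoters of the 4 genes that were lower together are shown for comparison, in the same form as above. Zfp553 (chr7:127232811-127233060, plus strand) holds 17 CG and Zfp771 (chr7:127244276-127244525, plus strand) 18, while Zfp747 (chr7:127376051-127376300, minus strand) holds 3 and Zfp689 (chr7:127449159-127449408, minus strand) 8.
Zfp553: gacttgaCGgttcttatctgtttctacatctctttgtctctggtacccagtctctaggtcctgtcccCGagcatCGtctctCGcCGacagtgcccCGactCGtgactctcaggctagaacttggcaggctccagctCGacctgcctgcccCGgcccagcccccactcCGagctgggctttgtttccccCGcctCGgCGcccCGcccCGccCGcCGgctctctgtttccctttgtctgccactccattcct
Zfp771: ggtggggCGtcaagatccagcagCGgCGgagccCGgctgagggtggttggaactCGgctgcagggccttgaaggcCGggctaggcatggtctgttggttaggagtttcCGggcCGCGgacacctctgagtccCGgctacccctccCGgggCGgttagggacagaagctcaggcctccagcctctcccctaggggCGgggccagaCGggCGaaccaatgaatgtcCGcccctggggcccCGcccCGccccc
Zfp747: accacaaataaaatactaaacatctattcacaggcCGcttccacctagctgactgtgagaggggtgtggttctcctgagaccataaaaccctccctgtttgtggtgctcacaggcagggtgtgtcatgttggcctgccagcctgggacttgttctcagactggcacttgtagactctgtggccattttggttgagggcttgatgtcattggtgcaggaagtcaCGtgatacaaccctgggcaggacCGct
Zfp689: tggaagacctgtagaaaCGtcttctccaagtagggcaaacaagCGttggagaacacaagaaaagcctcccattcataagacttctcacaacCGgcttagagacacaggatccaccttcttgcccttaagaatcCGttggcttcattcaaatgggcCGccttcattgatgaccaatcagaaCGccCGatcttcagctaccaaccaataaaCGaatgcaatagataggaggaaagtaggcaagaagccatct
Genes of this cluster with dense and with sparse CG windows were lower. A number of 17 or more is reached by 23.6% of all windows and one of 3 or more by 70.4%.

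**Figure D5:**
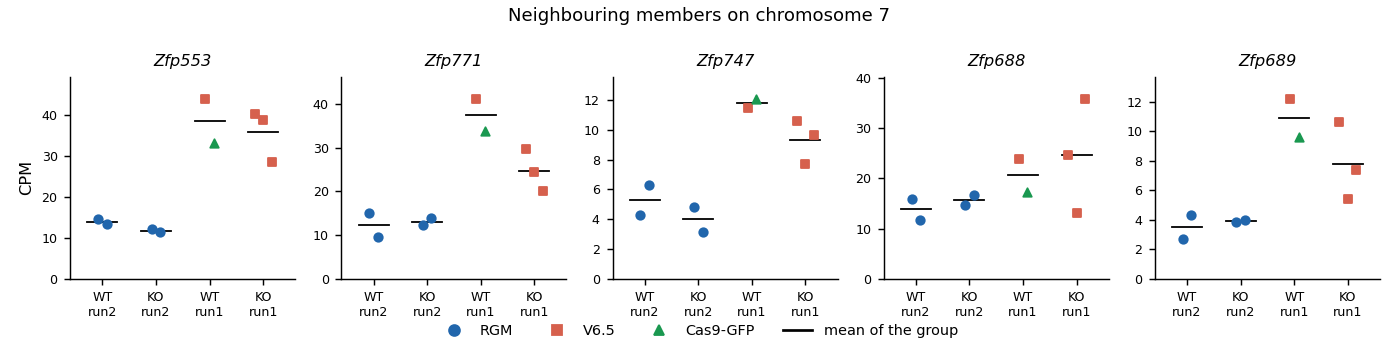
CPM in each library, with points shaped by cell line and bars for the mean of each genotype and run, for the 5 neighbouring Zfp genes of the chromosome 7 cluster. The RGM points lie below all run1 points for Zfp553, Zfp771, Zfp747 and Zfp689, and overlap them for Zfp688.

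Of the other clusters, some leaned the same way and some were mixed or leaned higher. Over all tested rows 22.2% were higher and 23.1% lower in RGM. On chromosome 7, 4 rows between 24081924 and 24515682 had 3 lower and a median of -0.92, and 3 rows between 12804977 and 12985714 had 2 lower and a median of -0.90. On chromosome 8, 3 rows between 69610857 and 69791178 had 1 lower and a median of -0.41. On chromosome 13, 9 rows with a KRAB box pattern between 67312998 and 67729173 had a median of -0.09, with 1 higher (Zfp748) and 1 lower. On chromosome 17, 7 rows between 21450374 and 21962464 had a median of 0.26 with 1 higher (Zfp760), and 4 rows between 32765496 and 33005457 had a median of 0.56 with 2 higher. A further 8 rows of chromosome 7 between 29768552 and 30107622 had 1 higher (Zfp383) and 1 lower and a median of -0.15.

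The partners of KRAB finger proteins differed by line in shares near those of all tested rows. Of 32 tested corepressor and heterochromatin genes 6 were higher (18.8%, beside 22.2%) and 8 lower (25%, beside 23.1%) in RGM, with a median log2 difference of -0.03. Trim28 had 0.16 (SE 0.14, adjusted p = 0.36) and Setdb1 -0.02 (SE 0.14, adjusted p = 0.91). Atrx, a chromatin remodeller, was lower (61.8 against 210 CPM, log2 fold change -1.76, SE 0.17, adjusted p = 3.4e-06), as were the deacetylases Hdac1 (-0.85, SE 0.16, adjusted p = 0.00084) and Hdac2 (-0.78, SE 0.13, adjusted p = 0.00038) and the HP1 gene Cbx5 (-0.68, SE 0.15, adjusted p = 0.0020). The HP1 genes Cbx1 (0.23, adjusted p = 0.31) and Cbx3 (-0.03, adjusted p = 0.94) did not pass. The DNA methyltransferase genes Dnmt3b (1.04, SE 0.19, adjusted p = 0.00052), Dnmt3l (0.68, SE 0.14, adjusted p = 0.0016) and Dnmt1, in a merged row (0.52, SE 0.11, adjusted p = 0.0018), were higher, and Dnmt3a did not pass (0.05, SE 0.16, adjusted p = 0.80). Of 16 tested Zscan and Zkscan genes 1 differed, Zscan5b, which was lower (-1.83, SE 0.49, adjusted p = 0.0074).

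The Cas9-GFP library was compared with the range of V6.5. It lay at least 2-fold above or below that range (4 libraries) for 0 of 191 Zfp rows, beside 0.633% of all tested rows. It lay anywhere above that range for 46 rows (24.1%, beside 16.4% of all tested rows) and below it for 31 (16.2%, beside 17.1%). The difference of this 1 library from V6.5 was not tested. Spread of the Zfp rows among libraries was wider in run1 than in RGM. The median coefficient of variation of a Zfp row was 22.6% in run1 and 13.7% in RGM, and 143 of the 191 rows were more variable in run1. The same was not computed over all tested rows, so it cannot be read as particular to Zfp genes. The run1 group holds 2 lines and 5 libraries, RGM 1 line and 4 libraries.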

How the data were processed

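The authors deposited raw counts per gene symbol for 9 libraries, whole numbers with different totals. The submitters' processing notes name STAR, DESeq2 and mm10; the counter, annotation and strand setting were not given in the sources used here. Of 30324 rows, 92 spike-in rows (1 count in all) were left out. Rows were kept with filterByExpr (minimum count 10), leaving 12645, and edgeR 4.0.16 under R 4.3.3 was run on them with TMM scaling: glmQLFTest after a robust glmQLFit with terms for run and genotype. Contrasts within runs came from a fit with 4 groups. P-values were adjusted over all tested rows (Benjamini-Hochberg, threshold 0.05). The SE of a log2 fold change was derived from its F value. Unnamed adjusted p-values are edgeR's. DESeq2 1.42.0 and limma 3.58.1 voom were alternatives, with RLE scaling, no filter and each library left out. The code was tested on simulated data.

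The members and lists were chosen with earlier results of these data known. Genes were named by rule: the 6 largest genotype changes each way, the 10 widest line differences each way without overlap, the 6 highest tag levels, the 3 smallest p of the difference between runs, textbook genes, and list members past the threshold or best expressed. Genes of the chromosome 7 cluster other than Zfp553 and Zfp771 were chosen after their values were seen. Finger, KRAB (at most 1 mismatch) and SCAN patterns were searched in the longest GENCODE M21 coding sequence; all 198 symbols were placed and 197 had one. RefSeq promoter windows matched 153 rows, with the first window taken where a gene had several.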

Additional observations from a re-analysis of the deposited data

Results flagged for a closer look

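For the named Zfp genes, 148 sets of library values (each gene by genotype and by line) were searched for a library far from the others of its group, and 6 were found; chance alone gives about 1 in 20. Zfp207, in a merged row, was far above the other libraries of its genotype in wild-type replicate 4 (454 CPM) and in knockout replicate 4 (460 CPM), while the remaining 7 libraries lay between 277 and 335 CPM. Zfp622 was likewise high in wild-type replicate 4 among the run1 libraries (162 CPM). Zfp516 was high in wild-type replicate 3 (30.5 CPM) among wild-type libraries. Zfp36 was high in knockout replicate 3 among run1 libraries (29.6 CPM), and Zfp131 in wild-type replicate 2 among RGM libraries (101 CPM).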

How the results depend on the processing

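The count of 0 Zfp rows by genotype held under DESeq2, RLE scaling, no low-count filter, limma voom, no run term, merged rows left out and each of the 9 fits without 1 library, while calls over all tested rows ran from 2 to 35. Within RGM it held in a fit to those 4 libraries alone, and within run1 in a fit to those 5 alone. Without wild-type replicate 4 it was also 0, but that sets 1 wild-type library against 3 and assumes that it varies like the other groups. The labels do not state that replicate numbers pair the samples. Correlations of the deviations of same-numbered libraries from their group means were -0.07, -0.07, 0.30 and 0.34 for replicates 1 to 4. In RGM, with 2 libraries of each genotype, the values of replicates 1 and 2 are the same by construction. The positive values of replicates 3 and 4 do not settle whether the numbers pair libraries in run1. With the replicate number as a block (replicates 1 to 4, knockout replicate 5 dropped) 0 Zfp rows and 6 of all tested rows were called, and with the block in RGM alone 0 and 5. By line, the 24 higher and 51 lower rows became 11 and 32 with wild-type libraries only and 15 and 26 with knockout libraries only, where fewer libraries enter the contrast. Without 1 library they ran from 17 to 30 and from 40 to 57, and 51 of the 75 called rows passed in all 9 such fits; DESeq2 shared 73 of them and voom 74. Alternatives for the choice of rows were added after seeing the data: 26 and 45 with equal weight to each run, and 36 and 68 over all 288 tested Zfp rows. Of 414 alternative values of single genes by line, 399 kept direction and side of the threshold and 15 lost the call, 7 of them those of Zfp706. Of 190 by genotype, 1 turned: Zfp951, which ran from -1.1 without knockout replicate 5 to 0.34 without wild-type replicate 4. Rows near the floor, such as Zfp951 in RGM, are limited by depth.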
